A study of Rattus norvegicus with 20 samples.

Results

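The genes described here encode the proteins of the mitochondrial ribosome, measured in the right ventricle of young rats of the outbred Wistar strain after pulmonary banding or a sham operation. They were chosen by name as every gene whose symbol is Mrpl or Mrps followed by a digit, with the transcript ID of the highest mean where a gene had several, which gave 74 genes of 18282 measured IDs. The ventricles came from 4 groups: banding for 4 weeks (age 7 weeks, n = 5), sham for 4 weeks (age 7 weeks, n = 5), banding for 8 weeks (age 11 weeks, n = 4) and sham for 8 weeks (age 11 weeks, n = 5). A band around the pulmonary artery makes the right ventricle pump against a higher resistance, and the series title speaks of rat pups. The labels describe banded ventricles as under pressure overload and sham ventricles as healthy, and name no genotype, drug or sex, time since surgery and age cannot be told apart, and replicate 2 of banding at 8 weeks was not analysed here.

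The mitochondrial ribosome translates the few messenger RNAs encoded in the mitochondrial genome, all of them for subunits of the respiratory chain and ATP synthase. Its ribosomal RNAs are made inside the organelle, while its proteins are encoded in the nucleus, made in the cytosol and imported. Mrpl genes are named for the large subunit, which joins amino acids, and Mrps genes for the small subunit, which reads the messenger RNA. Some of the proteins have a counterpart in the bacterial ribosome and others exist only in mitochondrial ribosomes. Heart muscle depends on oxidative phosphorylation, and in humans inherited defects of MRPL3, MRPL44 or MRPS22 can cause cardiomyopathy.

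Of the 74 genes, 48 belonged to the large subunit, including Mrps30 and Mrps18a despite their names, and 25 to the small subunit. The remaining gene, Mrps36, now named Kgd4, encodes a subunit of the 2-oxoglutarate dehydrogenase complex and is kept because it meets the naming rule. A value of at least 10 normalized counts in at least 4 libraries was reached by 69 genes, which were tested. The other 5 were Mrpl14, Mrpl30, Mrpl36, Mrpl53 and Mrps21, whose mean normalized counts over all libraries ran from 0 for Mrpl36 and Mrpl53 to 2.50 for Mrps21. Mrpl28, Mrpl33, Mrpl39 and Mrps6 had no row under these symbols and were not analysed here. Pseudogenes of 23 of the 74 genes are listed in the GRCr8 reference, so that reads could be split between copies, and 12 of the 69 tested genes overlap another named gene there, whose reads cannot be told apart without a stated strand setting.

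Recovered depth was 2.70 to 8.54 M reads per library, of which 11707 to 36280 fell on the 74 genes. Replicate 1 was the shallowest library of both 8-week groups. Myl7, an atrial myosin light chain, exceeded 1000 normalized counts in 7 libraries spread over all groups and reached 17580 in replicate 1 of sham at 8 weeks, and its part in the results was not tested. Counts of called genes are therefore also given without those 7 libraries. They were replicates 1 and 3 of sham and 2 of banding at 4 weeks, and replicates 1, 2 and 5 of sham and 3 of banding at 8 weeks. Fewer libraries and less Myl7 cannot be told apart in those counts.

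The summed transcripts of the mitochondrial ribosomal proteins were lower in every library of 8-week banding than in every 8-week sham. Summed over the 74 genes, the normalized counts in replicates 1, 3, 4 and 5 of banding at 8 weeks were 23445, 20590, 23453 and 21955. In replicates 1 to 5 of sham at 8 weeks the sums were 23715, 27790, 28107, 28677 and 27539. Replicate 1 of sham, the library with the highest Myl7, stood apart from the other 4 shams and close to banding. At 4 weeks the sums were 25982, 23562, 23315, 25588 and 24037 in banding, against 24085, 26633, 22903, 28384 and 25134 in sham. These groups overlapped widely, with means of 24497 ± 1212 in banding and 25428 ± 2148 in sham (SD, n = 5 each), whereas at 8 weeks the means were 22361 ± 1374 in banding (SD, n = 4) and 27166 ± 1975 in sham (SD, n = 5).

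**Figure D1:**
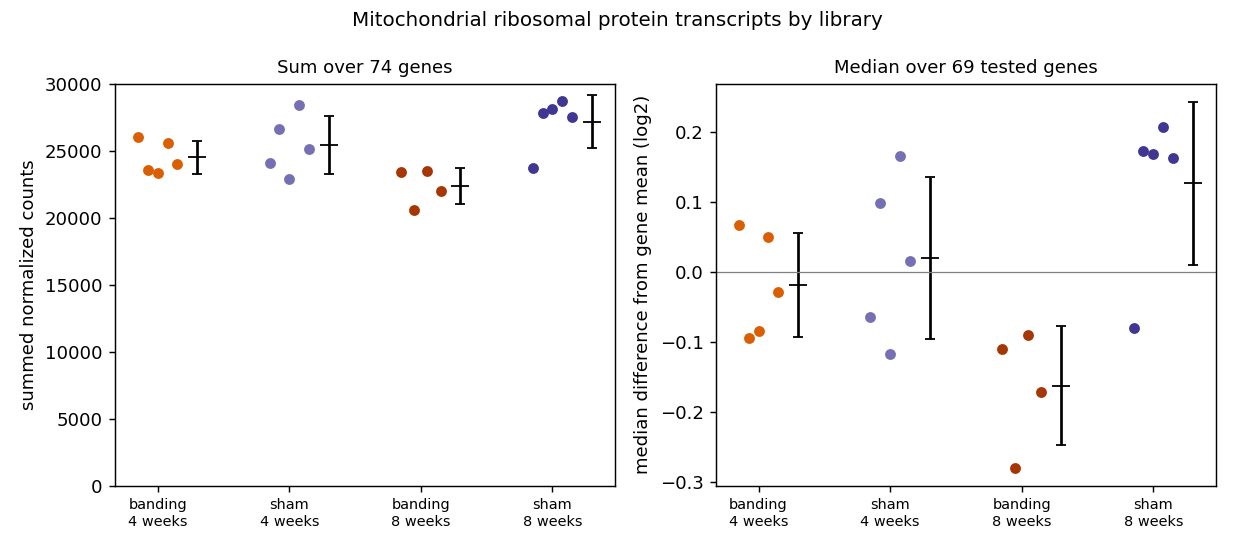
Mitochondrial ribosomal protein transcripts in each library. The left panel shows normalized counts summed over 74 genes and the right panel the median over the 69 tested genes of the log2 difference from each gene's mean over all libraries; points are libraries and the mark beside them is the mean ± SD (n = 5, 5, 4 and 5). In both panels the 4 libraries of banding at 8 weeks lie below the 5 of sham at 8 weeks, and replicate 1 of that sham group lies nearest to them.

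With limma and Benjamini-Hochberg adjustment over all 10926 tested IDs (adjusted p under 0.05), 39 of the 69 tested genes fell and 1 rose in banding at 8 weeks. Over all tested IDs, 16.6% were called lower and 16.7% higher in this comparison. The median log2 change of the 69 genes was -0.28, against 0.01 over all tested IDs, so that the middle gene fell by 17.5%, and 62 of the 69 changes were below 0. The changes ran from -0.80 to 0.29, with a median SE of 0.10. In 26 of the 69 genes all banding libraries lay below all sham libraries, against 12.7% of all tested IDs. Without the 7 libraries rich in Myl7, 32 genes were called lower and 0 higher, and 30 of the 32 were among the 39. At 8 weeks that fit kept only replicates 3 and 4 of sham and replicates 1, 4 and 5 of banding. Leaving out replicate 1 of sham at 8 weeks gave 44. In bulk tissue, fewer cells of a type and less RNA per cell cannot be told apart.

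**Figure D2:**
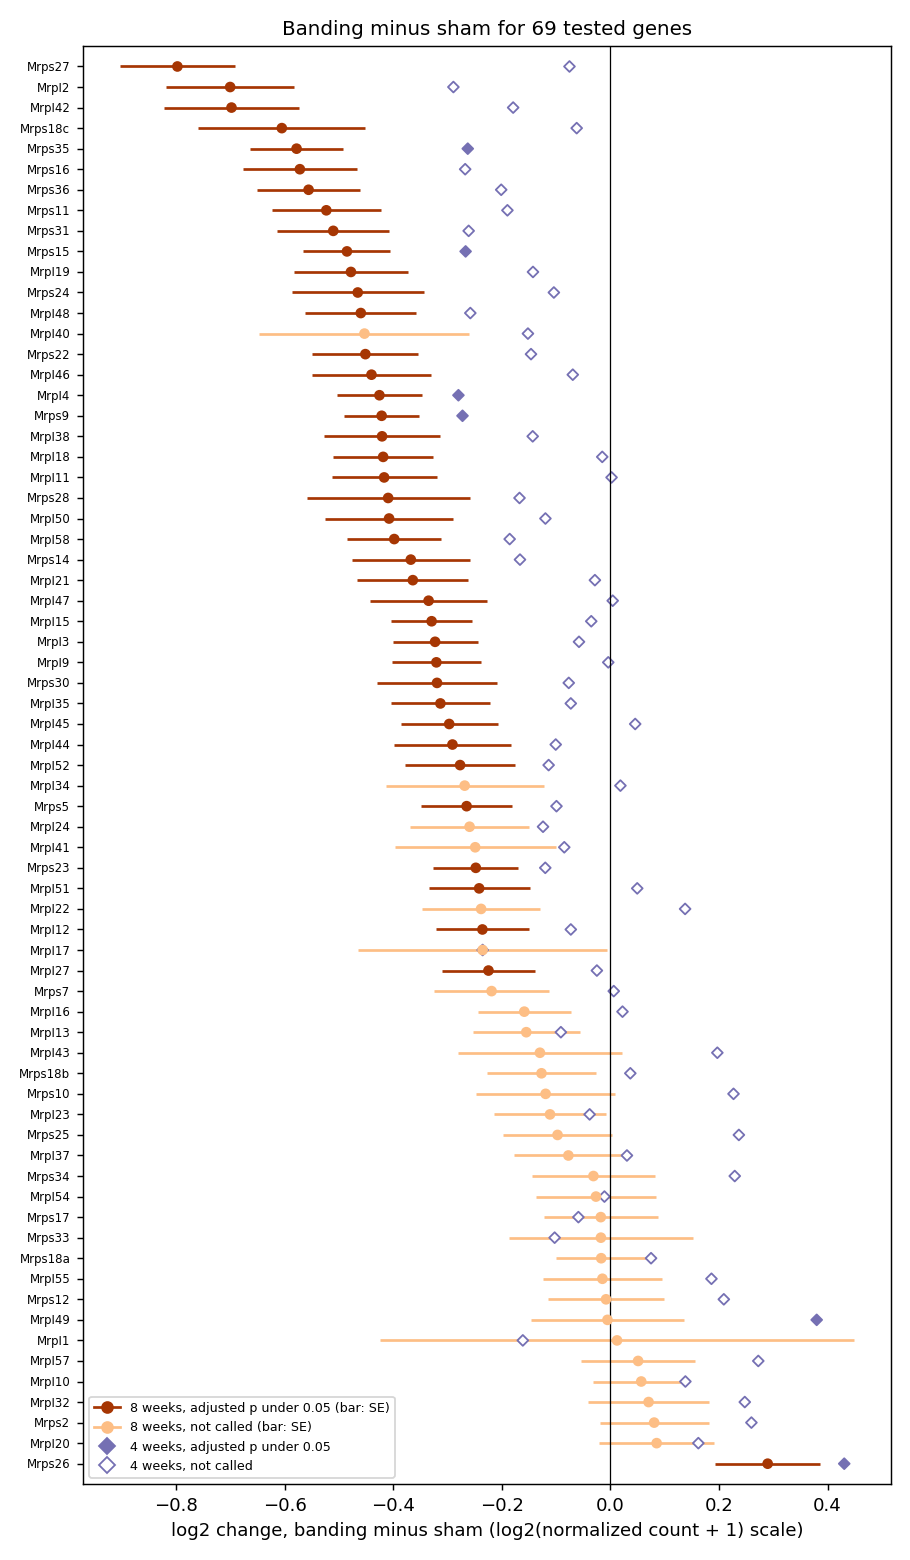
Log2 change of each of the 69 tested genes, banding minus sham, ordered by the change at 8 weeks (circles, bar ± SE; dark where the adjusted p was under 0.05) with the change at 4 weeks beside it (diamonds, filled where called). At 8 weeks 62 of the circles lie left of 0 and 39 of those are dark, and Mrps26 is the called gene on the right.

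Genes of both subunits fell. In the large subunit 24 of 44 tested genes were lower and none higher at 8 weeks, with a median log2 change of -0.27. In the small subunit 14 of 24 were lower and 1 was higher, with a median of -0.32. Of the genes with a bacterial counterpart 22 of 40 fell, with a median log2 change of -0.27, and of those found only in mitochondrial ribosomes 16 of 28 fell, with a median of -0.28. The differences between subunits and between these classes were not tested.

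The largest decrease was that of Mrps27, a small-subunit protein of the pentatricopeptide repeat family. In banding at 8 weeks it had 94.1, 104.6, 115 and 86.9 normalized counts in replicates 1, 3, 4 and 5, against 161, 177, 191, 182 and 161 in sham at 8 weeks. Every banding library was below every sham library, and the log2 change was -0.80 ± 0.11 (SE; limma adjusted p = 4.74e-06). Mrps27 thus fell by 42.5%. At 4 weeks the same gene had 144, 124, 106, 124 and 141 normalized counts in banding, against 138, 141, 124, 132 and 137 in sham. There the groups overlapped fully, and the log2 difference was -0.08 ± 0.10 (limma adjusted p = 0.664).

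Among the other small-subunit genes, Mrps35 had 355, 364, 388 and 322 normalized counts in banding at 8 weeks, against 484, 582, 505, 539 and 558 in sham. The groups did not overlap, and Mrps35 fell by 0.58 ± 0.09 on the log2 scale (limma adjusted p = 1.96e-05). Mrps16, the homolog of a bacterial small-subunit protein, had 429, 327, 333 and 328 normalized counts in banding, against 434, 509, 562, 555 and 570 in sham. Its groups were separated by a narrow margin because replicate 1 of banding was high and replicate 1 of sham low, and the log2 change was -0.57 ± 0.10 (limma adjusted p = 0.000196). Mrps22, whose human counterpart is a cardiomyopathy gene, had 242, 209, 267 and 246 normalized counts in banding, against 289, 318, 362, 347 and 333 in sham, again without overlap, and its log2 change was -0.45 ± 0.10 (limma adjusted p = 0.00103).

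The 3 mammalian homologs of one bacterial small-subunit protein, Mrps18a, Mrps18b and Mrps18c, of which Mrps18a sits in the large subunit, differed in their calls. Mrps18c had 132, 160, 161 and 121 normalized counts in banding at 8 weeks, against 157, 243, 242, 217 and 243 in sham. Replicate 1 of sham lay within the banding range, and Mrps18c fell by 0.61 ± 0.15 on the log2 scale (limma adjusted p = 0.00400). Mrps18a and Mrps18b were not called, with log2 differences of -0.02 ± 0.08 and -0.13 ± 0.10. Whether the 3 homologs differ from each other was not tested.

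In the core of the large subunit, Mrpl2, a protein near the peptidyl transferase centre, showed the largest decrease. It had 236, 156, 180 and 177 normalized counts in banding at 8 weeks, against 254, 343, 296, 311 and 312 in sham. No library of banding reached the lowest sham, although replicate 1 of each group came close, and the log2 change was -0.70 ± 0.12 (limma adjusted p = 7.90e-05). Mrpl42, a protein with no bacterial counterpart, had 174, 146, 168 and 212 normalized counts in banding, against 264, 329, 304, 251 and 271 in sham. It too was lower in every banding library, with a log2 change of -0.70 ± 0.12 (limma adjusted p = 0.000142). Mrpl3, another core protein and a human cardiomyopathy gene, had 1087, 884, 1078 and 968 normalized counts in banding, against 1095, 1280, 1318, 1322 and 1260 in sham. By mean normalized count Mrpl12, Mrpl3 and Mrpl51 were the most counted of the 74 genes. The change of Mrpl3 was at -0.32 ± 0.08 on the log2 scale (limma adjusted p = 0.00271), and replicate 1 of sham lay just above its banding range.

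Several functional sites of the large subunit were represented among the genes that fell. At the stalk, which recruits translation factors, Mrpl11 fell by 0.42 ± 0.10 and Mrpl12 by 0.24 ± 0.09 on the log2 scale (limma adjusted p = 0.00189 and 0.0363), while Mrpl10, which joins them, was not called at 0.06 ± 0.09. Mrpl10 overlaps Lrrc46 in the reference, and the call on Mrpl12 was lost in 8 of 30 alternatives (other scalings, filters and tools, or libraries left out). Of 5 genes assigned here to the central protuberance, which touches the transfer RNAs, 4 fell. Their 5 log2 changes lay between -0.46 and -0.42, and the list may leave out other proteins of that site. Of 4 genes counted here for the exit tunnel and its rim (Mrpl22, Mrpl23, Mrpl24 and Mrpl47), 1 fell. It was Mrpl47, named after its value was seen, which overlaps Actl6a and Ndufb5 in the reference. Mrpl4, which also reaches the tunnel and fell, was not among the 4. Mrpl45, which anchors the ribosome to the inner membrane, had 587, 560, 594 and 571 normalized counts in banding, against 612, 674, 735, 795 and 751 in sham, a change of -0.30 ± 0.09 on the log2 scale (limma adjusted p = 0.0134).

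Mrpl58, a peptidyl-tRNA hydrolase built into the ribosome that rescues stalled translation, had 322, 333, 324 and 285 normalized counts in banding at 8 weeks, against 352, 406, 438, 449 and 443 in sham. It was lower in every banding library and fell by 0.40 ± 0.09 on the log2 scale (limma adjusted p = 0.00101). Mrps30, a large-subunit protein, fell by 0.32 ± 0.11 (limma adjusted p = 0.0285), a call lost in 5 of 30 alternatives. Mrpl51 fell by 0.24 ± 0.09 (limma adjusted p = 0.0493), a call lost in 16 of 30 alternatives. Mrpl44, related to ribonuclease III and a human cardiomyopathy gene, fell by 0.29 ± 0.11 (limma adjusted p = 0.0416). Its call was lost in 9 of 30 alternatives, and its libraries overlapped, at 332, 224, 286 and 311 normalized counts in banding against 275, 383, 374, 377 and 350 in sham. Mrps36, the dehydrogenase subunit that is not part of the ribosome, fell by 0.56 ± 0.09 (limma adjusted p = 8.54e-05), with 440 to 513 normalized counts in banding and 583 to 875 in sham.

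Mrps26, a small-subunit protein with no bacterial counterpart, went the other way. In banding at 8 weeks it had 290, 288, 251 and 321 normalized counts, against 220, 227, 218, 246 and 262 in sham. Replicate 4 of banding lay within the sham range, and the log2 change was 0.29 ± 0.10 (limma adjusted p = 0.0245), a call lost in 6 of 30 alternatives. At 4 weeks it had 283, 341, 378, 325 and 353 normalized counts in banding, against 246, 265, 253, 270 and 210 in sham. There every banding library was above every sham library, with a log2 change of 0.43 ± 0.09 (limma adjusted p = 0.00162), and the call held in all 30 alternatives.

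Of the 69 tested genes, 28 passed in neither comparison of banding with sham. They include the decoding-centre protein Mrps12, with log2 differences of -0.01 ± 0.11 at 8 weeks and 0.21 ± 0.10 at 4 weeks, and the head protein Mrps7, with -0.22 ± 0.11 and 0.01 ± 0.10. Mrps2, which overlaps Pierce1 in the reference, stood at 0.08 ± 0.10 at 8 weeks and 0.26 ± 0.09 at 4 weeks. Mrpl1 was the tested gene with the fewest reads, at a mean of 10.4 normalized counts, and its log2 difference at 8 weeks was 0.01 ± 0.44, an SE at which a moderate change in either direction could be missed. Mrpl17, with a mean of 26.0 normalized counts, was at -0.24 ± 0.23, and Mrpl40, with a mean of 65.6 normalized counts, was at -0.45 ± 0.19 (limma adjusted p = 0.0772). A missed threshold does not show that these genes were alike in banding and sham.

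Since so many of the genes moved together, their promoters are shown for a few members. For 60 of the 74 genes the RefSeq table of the GRCr8 assembly held a window of 300 bases, 250 before and 50 after the annotated start. In it 3 short motif cores of factors known to act on nuclear genes for mitochondrial proteins were searched on both strands: GCGCATG for NRF1, CCGGAAG for ETS-family factors such as Gabpa, and ATGGCGG for YY1. The NRF1 letters can overlap their own reverse complement. The 100 bases before the start are printed on the strand of the gene, with motif matches on either strand in capitals, for the gene with the largest fall (Mrps27), for a further gene that fell with a match (Mrpl58) and one without (Mrpl2), for 2 genes with matches that were not called (Mrpl32 and Mrpl57), and for the gene that rose (Mrps26), whose match lies after the start.
Mrps27, chr2:32474104-32474203, plus strand: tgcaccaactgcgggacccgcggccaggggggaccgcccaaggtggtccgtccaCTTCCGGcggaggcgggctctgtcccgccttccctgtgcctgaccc
Mrpl58, chr10:101145242-101145341, plus strand: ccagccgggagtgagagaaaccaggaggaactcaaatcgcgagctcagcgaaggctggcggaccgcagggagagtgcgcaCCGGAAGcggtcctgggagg
Mrpl2, chr9:21834608-21834707, minus strand: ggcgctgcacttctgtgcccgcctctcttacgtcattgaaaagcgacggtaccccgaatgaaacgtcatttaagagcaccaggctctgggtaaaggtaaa
Mrpl32, chr17:55260551-55260650, plus strand: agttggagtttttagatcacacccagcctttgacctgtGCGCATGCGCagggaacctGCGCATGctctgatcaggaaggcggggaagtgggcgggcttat
Mrpl57, chr15:36086357-36086456, plus strand: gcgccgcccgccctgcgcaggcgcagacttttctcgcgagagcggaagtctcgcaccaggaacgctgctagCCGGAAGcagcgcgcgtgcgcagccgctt
Mrps26, chr3:138222224-138222323, plus strand: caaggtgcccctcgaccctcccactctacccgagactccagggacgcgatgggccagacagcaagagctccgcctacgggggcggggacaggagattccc

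The ETS-family motif was found in 20 of the 60 windows, or 33.3%, against 8.75% of all 33469 promoters and 17.5% of the promoters of tested genes. The 60 include the untested Mrpl14, Mrpl30, Mrpl36, Mrpl53 and Mrps21, all but Mrpl14 with this motif, so the sets are unlike. The YY1 letters were found in 15 of 60, or 25%, against 4.80% of all promoters and 9.79% of those of tested genes. All 15 matches lay after the annotated start, on the strand of the gene. The letters begin with ATG, so a coding start and a factor site cannot be told apart there. The NRF1 letters were found in 6 of 60, or 10%, against 3.77% and 6.79%. Among genes that fell at 8 weeks 16 of 30 windows held any of the 3 motifs, and among the other tested genes 14 of 25 did. By motif, the windows of genes that fell held the ETS-family letters in 9 of 30, the YY1 letters in 8 of 30 and the NRF1 letters in 1 of 30, against 7, 6 and 5 of 25 in the others. These counts describe letters in an annotated window and were not tested.

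After 4 weeks of banding 4 of the 69 genes fell and 2 rose by the same test, while 9.82% of all tested IDs were called lower and 9.27% higher. The median log2 change was -0.07, against 0.00 over all tested IDs, and 45 of the 69 changes were below 0. Without the libraries rich in Myl7, 6 genes were called lower and 1 higher. Without replicate 2 of sham at 4 weeks 2 genes were called lower, and without replicate 3 of the same group 7 were. In 4 genes all banding libraries lay below all sham libraries and in 3 above them, against 6.75% and 6.51% of all tested IDs. All 4 genes that fell at 4 weeks, Mrps9, Mrps15, Mrps35 and Mrpl4, were also called lower at 8 weeks.

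Mrps9, the homolog of a bacterial small-subunit protein, had 548, 561, 526, 556 and 522 normalized counts in banding at 4 weeks, against 672, 701, 602, 693 and 613 in sham at 4 weeks. The groups were separate, and Mrps9 fell by 0.27 ± 0.06 on the log2 scale (limma adjusted p = 0.00440). At 8 weeks it had 601, 487, 526 and 518 normalized counts in banding, against 679, 687, 714, 763 and 722 in sham, and the log2 change was -0.42 ± 0.07 (limma adjusted p = 5.62e-05). Mrpl4, a core protein that reaches the exit tunnel, was likewise lower in every banding library at 4 weeks, at 546, 578, 486, 585 and 541 normalized counts in banding, against 654, 714, 595, 702 and 658 in sham. Its log2 change was -0.28 ± 0.07 at 4 weeks and -0.43 ± 0.08 at 8 weeks (limma adjusted p = 0.00955 and 0.000210).

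Mrps15, another protein with a bacterial counterpart, fell by 0.27 ± 0.08 at 4 weeks and by 0.49 ± 0.08 at 8 weeks on the log2 scale (limma adjusted p = 0.0150 and 6.38e-05). Its 4-week call was lost without replicate 2 of sham, at an adjusted p of 0.0529. Mrps35 fell by 0.26 ± 0.08 at 4 weeks (limma adjusted p = 0.0254), a call lost in 3 of 30 alternatives, each of which left out 1 of the 10 libraries at that time: replicate 2 of sham, or replicate 3 or 4 of banding. Mrpl49, which overlaps Syvn1 in the reference, was the other gene that rose beside Mrps26. It had 202, 176, 173, 220 and 187 normalized counts in banding at 4 weeks, against 117, 151, 125, 203 and 151 in sham. Replicate 4 of sham lay within the banding range, the log2 change was 0.38 ± 0.13 (limma adjusted p = 0.0466), and the call was lost in 19 of 30 alternatives. At 8 weeks its log2 difference was -0.01 ± 0.14.

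**Figure D3:**
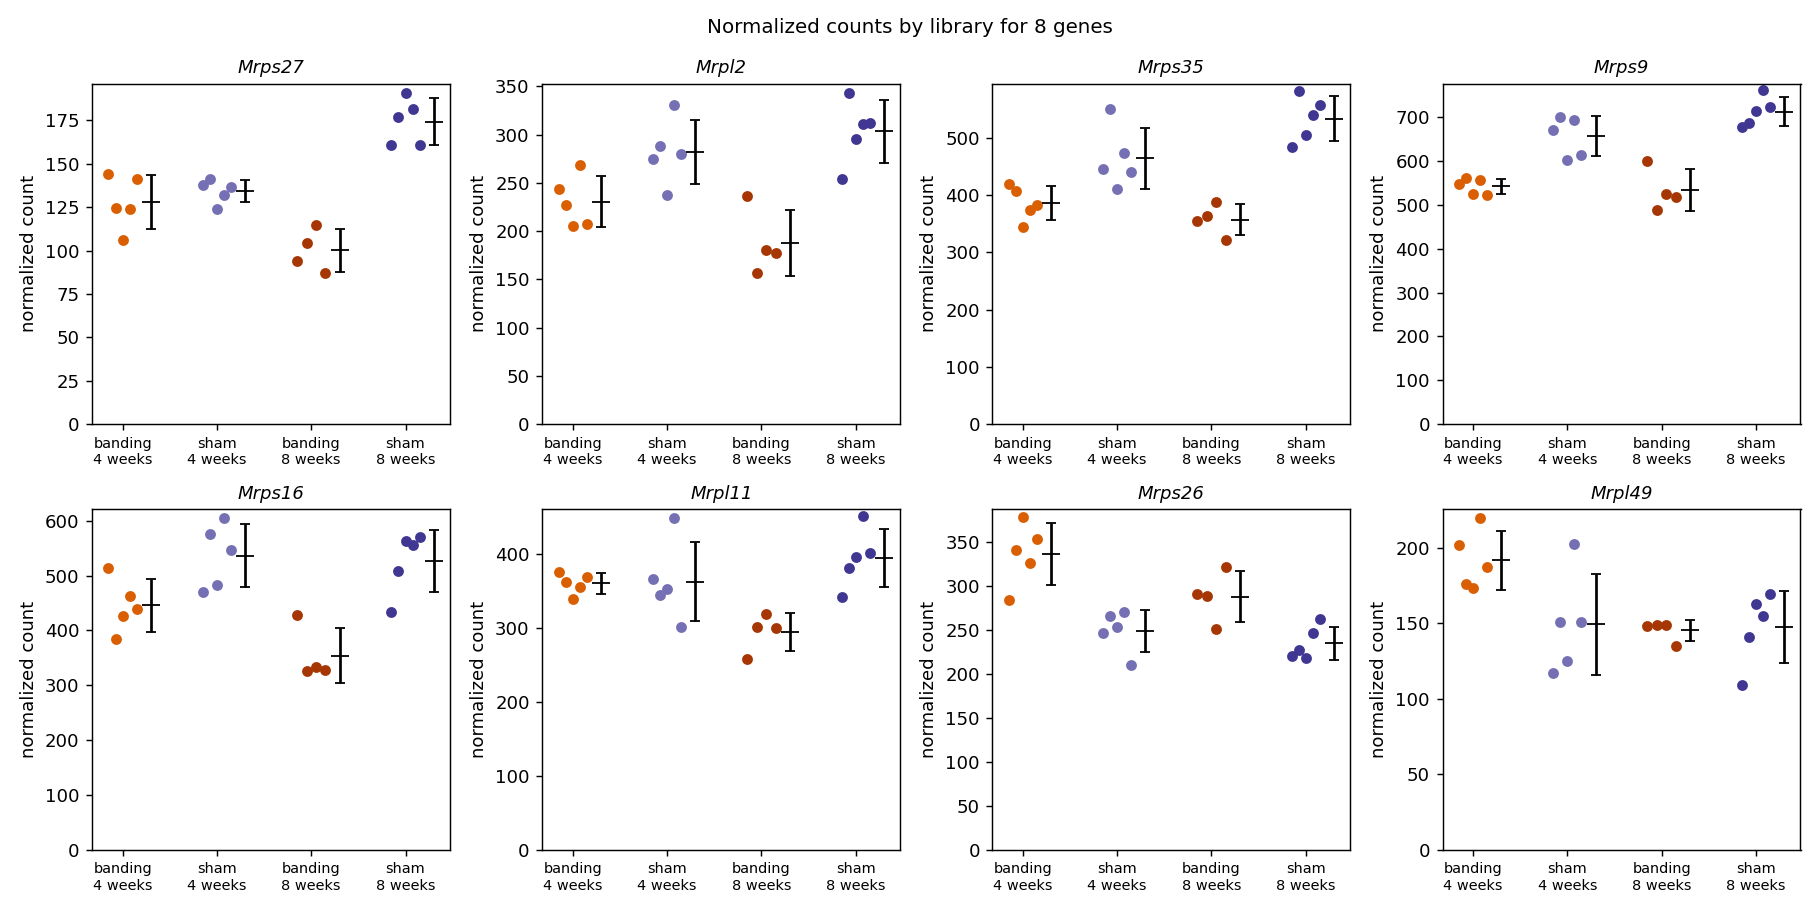
Normalized counts of 8 genes in every library, with the mean ± SD beside each group (n = 5, 5, 4 and 5). Mrps27 separates the groups at 8 weeks and not at 4 weeks, Mrps9 separates them at both times, and Mrps26 is higher in banding, with overlap at 8 weeks.

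Between 8 and 4 weeks most of the differences were above 0 in sham and below 0 in banding, and nearly all missed the threshold. In sham at 8 weeks minus sham at 4 weeks, 58 of the 69 log2 differences were above 0, with a median of 0.09, against 0.01 over all tested IDs. The only call was Mrps27, which rose by 0.37 ± 0.10 (limma adjusted p = 0.0275; lost in 7 of 30 alternatives), while 2.67% of all tested IDs were called higher and 3.86% lower. The groups did not overlap in 2 genes, both higher at 8 weeks, against 3.12% of all tested IDs higher and 3.35% lower. In banding at 8 weeks minus banding at 4 weeks, 60 of the 69 differences were below 0, with a median of -0.14, against 0.00 over all tested IDs. With limma 0 were called, against 0.659% of all tested IDs lower and 0.485% higher. An unadjusted limma p under 0.05 was reached by 20, all lower, against 768 lower and 765 higher of all 10926 tested IDs. With edgeR 0 were called, and DESeq2 called 1 lower, Mrpl45. All libraries at 8 weeks lay below all those at 4 weeks in 9 genes, against 3.04% of all tested IDs, and above them in 0, against 2.23%. For 55 of the 69 genes banding at 8 weeks had the lowest of the 4 group means, against 26.6% of all tested IDs. For 44 of the 69 sham at 8 weeks had the highest of the 4 group means, or 63.8% of them, against 31.5% of all tested IDs.

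The difference between the banding effects at 8 and at 4 weeks was tested directly. It was below 0 for 66 of the 69 genes, with a median of -0.24 on the log2 scale, against 0.00 over all tested IDs. With limma none of the 69 passed, at 0.0275% of all tested IDs called higher and 0.0% lower. At an unadjusted limma p under 0.05 23 were lower and 0 higher, against 639 lower and 639 higher of all 10926 tested IDs. The edgeR test called 0 and DESeq2 1. That gene was Mrps27, whose effect differed by -0.72 ± 0.15 on the log2 scale (limma adjusted p = 0.0703, DESeq2 adjusted p = 0.00829). Limma called Mrps27 only in some of the fits with libraries left out. Without the libraries rich in Myl7, limma called 0 genes in sham at 8 minus 4 weeks, 0 in banding at 8 minus 4 weeks and 0 for the difference of effects. The 35 genes that fell at 8 weeks and were not called at 4 weeks are thus not shown one by one to have changed more at the later time. Across the 69 genes the changes at both times had a Pearson r of 0.757, against 0.797 over all tested IDs. This is a description across genes measured in shared libraries, which are not independent.

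**Figure D4:**
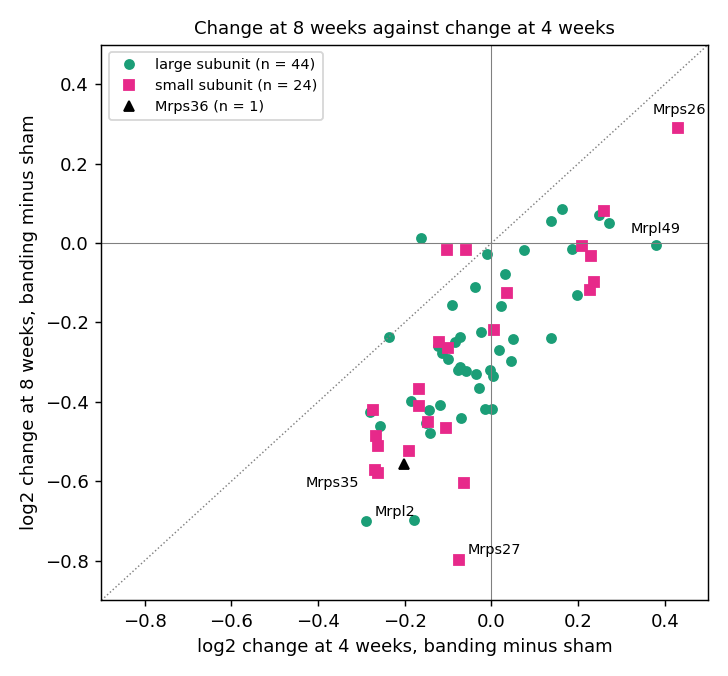
Log2 change at 8 weeks (vertical) against 4 weeks (horizontal), banding minus sham, for the 69 tested genes by subunit; the dotted line marks equal change. All but 3 genes lie below the line, and Mrps26 is high on both axes.

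The rest of the mitochondrial translation system was examined with the same fit. For these lists and those that follow, 16.6% of all tested IDs were called lower and 16.7% higher at 8 weeks. Of 5 mitochondrial ribosomal proteins that carry other symbols, Ptcd3 fell by 0.35 ± 0.08 and Gadd45gip1 by 0.31 ± 0.10 on the log2 scale at 8 weeks (limma adjusted p = 0.00234 and 0.0220). Dap3, Chchd1 and Aurkaip1 were not called, at -0.13 ± 0.10, -0.29 ± 0.12 and -0.13 ± 0.10. Gadd45gip1 was also lower at 4 weeks, by a log2 change of -0.31 ± 0.10 (limma adjusted p = 0.0245). Of 16 tested genes listed here as translation factors 7 fell and none rose at 8 weeks, with a median log2 change of -0.21. They include Mrrf, which recycles ribosomes after termination and fell by 0.62 ± 0.08. Also among them is Oxa1l, not itself a translation factor, which inserts new chains into the inner membrane and fell by 0.45 ± 0.08.

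Of 17 mitochondrial aminoacyl-tRNA synthetases, which charge transfer RNAs with amino acids, 7 fell and none rose at 8 weeks, with a median log2 change of -0.28. Aars2 fell by 0.53 ± 0.09 and Sars2 by 0.51 ± 0.12. Of 22 genes for assembly of the ribosome and modification of its RNA, 9 fell and none rose, with a median of -0.23. Malsu1, an assembly factor of the large subunit, fell by 0.71 ± 0.14, Rbfa, which matures the small subunit, by 0.56 ± 0.09, and Eral1, a chaperone of its RNA, by 0.46 ± 0.10. Of 12 genes for mitochondrial transcription and genome maintenance 4 fell, among them Tfb2m, a transcription initiation factor, by 0.56 ± 0.10, while Tfam, which packages the mitochondrial DNA, was not called at -0.20 ± 0.10.

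Nuclear partners of the mitochondrial products and the proteins of the other ribosome of the cell were counted as well. Of 33 tested nuclear subunits of respiratory complex I, 29 fell and none rose at 8 weeks, with a median log2 change of -0.38. At 4 weeks 11 fell, against 9.82% of all tested IDs called lower. Of 60 tested cytosolic ribosomal proteins 1 fell and 8 rose at 8 weeks, with a median of 0.06. Over all tested IDs 16.6% were called lower and 16.7% higher, so the rises do not exceed that share. The one that fell was the muscle paralog Rpl3l, at -1.03 ± 0.14, and Rpl3 rose by 0.72 ± 0.11. No test compared these lists with the mitochondrial ribosomal proteins. Of 7 regulators tied to the searched motifs or to mitochondrial gene expression, 3 fell at 8 weeks: the coactivator Ppargc1a by 0.70 ± 0.11, the receptor Esrra by 0.45 ± 0.09 and Gabpa by 0.19 ± 0.07 (limma adjusted p = 0.0473). Nrf1, at 0.03 ± 0.12, and Yy1, at -0.24 ± 0.12, were not called. Of the 7 changes 2 were above 0, the larger at 0.41 in a regulator not named here, and 0 regulators were called higher.

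**Figure D5:**
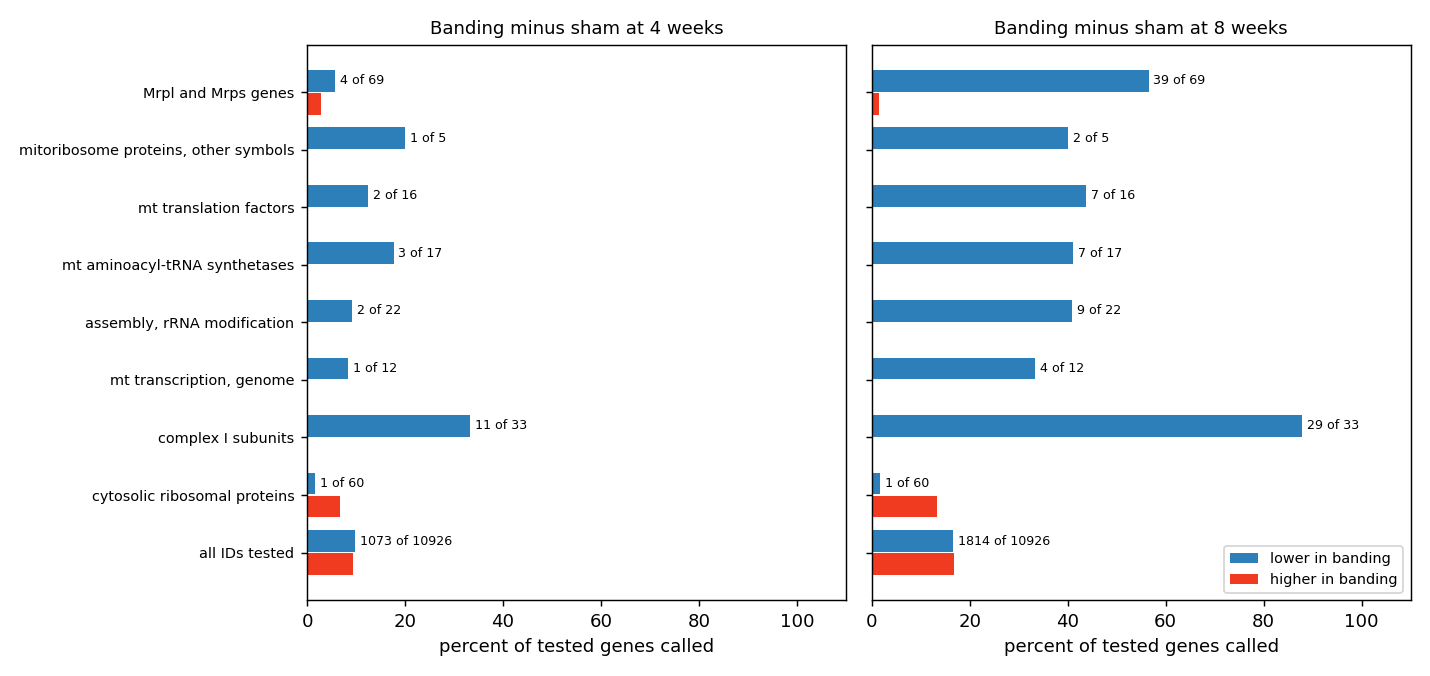
Percent of the tested genes in each list called lower (blue, with the count) or higher (red) by limma in banding minus sham at 4 weeks (left) and 8 weeks (right). At 8 weeks 39 of 69 Mrpl and Mrps genes and 29 of 33 complex I subunits were lower, against 1 of 60 cytosolic ribosomal proteins.

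Markers of several cell types were counted beside these genes. At 8 weeks 16.6% of all tested IDs were called lower and 16.7% higher, and the cardiomyocyte and fibroblast counts below do not stand out from these shares. All 10 tested ventricular cardiomyocyte markers were present, and at 8 weeks 2 were lower (Myh6 and Tnni3) and 2 higher (Myh7 and Actc1), with a median log2 change of 0.04. Their summed normalized counts ran from 500100 to 574919 in banding at 8 weeks and from 558383 to 651390 in sham. Of 7 macrophage markers 6 were higher at 8 weeks, with sums of 4136 to 4931 in banding and 2319 to 3171 in sham. Of 7 endothelial markers 4 were higher, with sums of 7625 to 11803 in banding and 6922 to 7773 in sham. Of 6 smooth muscle and pericyte markers 4 were higher, with sums of 6806 to 7251 in banding and 4574 to 6106 in sham. Of 6 tested fibroblast markers 1 was lower and none higher, with sums over 7 markers of 31395 to 35676 in banding and 24007 to 39395 in sham. No marker of these lists was at 0 in all libraries. The part of the cell mixture in the changes of the mitochondrial ribosomal proteins was not tested.

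In the authors' deposited table for banding against sham at 8 weeks, 37 of the 69 genes were called lower and 1 higher at an adjusted p under 0.05, where 13.9% of all its IDs with an adjusted p were lower, and 38 of the 40 calls given above were shared in direction. In the authors' deposited table for 4 weeks 5 were lower and 2 higher, where 9.14% of all its IDs were lower, with 6 of 6 calls shared. These tables rest on the same libraries.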

How the data were processed

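Total RNA of the right ventricle was sequenced after rRNA removal with TruSeq Ribo-Zero Gold, per the labels' protocols. Per the submitters' processing notes, STAR, DESeq2 and rn6 were used. Not given in the sources used here are their versions, the counting program and its strand setting. The deposited normalized counts are a signal, reads over a library's size factor, of 18282 RefSeq IDs in 19 of the 20 labelled samples. The authors also deposited DESeq2 comparison tables with a log2 fold change, a Wald score and p-values. Within 0.001, 100% of the positive values were whole multiples of 1 step, so reads were recovered (2.70 to 8.54 M per library, median 5.79 M). The labels do not say that samples of a group came from separate animals, so p-values measure the spread between these samples.

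Symbols came from the deposited comparison tables, and 70 of 74 matched the GRCr8 reference table, used for names, neighbours and promoters. The main test was limma 3.58.1 (R 4.3.3) on log2(value + 1) (empirical Bayes with a trend, 2-sided, all 4 groups in 1 model) over the 10926 IDs with at least 10 in at least 4 libraries. Calls needed an adjusted p (Benjamini-Hochberg) under 0.05. The log2(value + 1) scale understates the change of low genes. No gene lengths were at hand, so levels of different genes were not compared. Alternatives were pseudocounts of 0.5 and 5, no filter, a mean of at least 50, TMM and quantile scaling, the replicate number as a block, edgeR 4.0.16 and DESeq2 1.42.0 on recovered reads, each library left out, libraries with Myl7 above 1000 left out, and, added after seeing the data, the 2 shallowest libraries left out. The code was tested on simulated data.

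Members, gene lists, motifs and tests were chosen with earlier results of these data known. Genes named with values were, by rule, up to 6 called members with the largest fall and rise per comparison, calls against the majority, members of extreme mean and a fixed set of known function. From other lists came up to 4 genes with the smallest p, and all of the mitochondrial ribosomal proteins with other symbols. Of the regulators tied to the motifs not all are named. Tfam was added after its value was seen. Longer forms of the NRF1 and YY1 motifs were searched first, and the shorter cores printed here replaced them after those counts were seen, so the motif shares depend on the letters chosen.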

Additional observations from a re-analysis of the deposited data

Results flagged for a closer look

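In groups of 4 or 5 libraries, single libraries that stood far from the rest were looked for in the genes named above and in their sum. Of 124 groups tested 6 had one, and chance alone flags about 1 group in 20. In sham at 8 weeks the sum over the 74 genes was lowest in replicate 1, at 23715 normalized counts against 27539 to 28677 in the others, and in the same library Mrpl3 was lowest, at 1095 against at least 1260. That library had 2.81 M reads and 17580 normalized counts of Myl7. In banding at 8 weeks Mrps16 was high in 1 library, at 429 normalized counts against at most 333, Mrpl49 was low in 1, at 135 against at least 148, and Mrps2 was low in 1, at 170 against at least 193. In banding at 4 weeks Mrps22 was low in 1 library, at 256 normalized counts against at least 291.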

How the results depend on the processing

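The count of genes that fell in banding at 8 weeks lay between 32 and 44 over 30 alternatives, and all 39 kept a change below 0 in each, 26 of them with a call in each. It was 38 with edgeR and 38 with DESeq2. Leaving out 1 library at a time gave 32 to 44 lower and 0 to 1 higher at 8 weeks, 2 to 7 lower and 1 to 4 higher at 4 weeks, 0 to 2 higher in sham at 8 minus 4 weeks, 0 to 1 lower in banding at 8 minus 4 weeks and 0 to 1 lower for the difference of effects. At 4 weeks the 2 genes called higher became 1 without a filter, with TMM factors, with quantile scaling and without the Myl7-rich libraries, 4 with a mean of at least 50, and 6 without the 2 shallowest libraries, where 7 were lower. They became 4 without replicate 3 of banding or replicate 4 of sham at 4 weeks. The 1 gene called higher at 8 weeks became 0 without the Myl7-rich or the 2 shallowest libraries, and the 1 in sham at 8 minus 4 weeks became 0 without the Myl7-rich libraries. For banding at 8 minus 4 weeks DESeq2 called 1 lower, Mrpl45, and the fit without the 2 shallowest libraries called a different 1, Mrps16. For the difference of effects each of these fits called 1 lower, Mrps27. The cause was not tested.

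Replicate numbers did not pair the samples: same-numbered banding and sham libraries had correlations of their deviations from -0.146 to 0.124. With the replicate block 38 genes were lower and 1 higher at 8 weeks, and 6 lower and 2 higher at 4 weeks. Among the tested genes Mrpl1 and Mrpl17 had the lowest mean counts, and the 5 genes below the minimum were not tested. Why those 5 had few or no reads was not tested.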
